A study of Mus musculus with 14 samples.

Results

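The *Serpina3* genes are a tandem family of serine protease inhibitors on mouse chromosome 12, and 9 of them were followed here: *Serpina3b*, *Serpina3c*, *Serpina3f*, *Serpina3g*, *Serpina3h*, *Serpina3i*, *Serpina3k*, *Serpina3m* and *Serpina3n*. These 9 of the 49315 genes in the spleen count table were chosen by name, as neighbours and relatives of *Serpina3b*, which was itself selected on its loss from the spleen of mice that lack the RNA-binding protein ZFP36L2. The spleen values of the 9 genes are therefore given as a description without a test. The libraries were poly(A) RNA from 4 wild type and 4 L2-fKO spleens and 3 wild type and 3 L2-fKO ovaries. The L2-fKO mice were *Zfp36l2*-/- and carried the Tg.CMV-Cre transgene, after Cre had removed the loxP-flanked exon 2. The wild type littermates had both intact copies of *Zfp36l2* and carried CMV-Cre as well, so both genotypes shared the transgene. In this transgene Cre is under a cytomegalovirus promoter that works from early development on and is not limited to a tissue, so the deletion was general and cannot be assigned to one cell type of the spleen or ovary. The labels give no ages. The study describes the animals as pups of the first days of life and as age-matched between genotypes. For the spleen it names 4 age-matched pairs, and the labels do not say which animals formed a pair. In the labels the source name for the spleen libraries is spleen organoid and the name for the knockout is L2-cKO. Among the wild type spleens 2 animals were female and 2 male, and among the L2-fKO spleens 1 was female and 3 were male. L2-fKO spleen 3 and L2-fKO ovary 1 came from the same animal.

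Serpins hold out a reactive centre loop as bait, and the protease that cuts the loop is trapped in a dead complex with the inhibitor. Humans have a single SERPINA3 gene, which makes alpha-1-antichymotrypsin, an acute-phase plasma protein that blocks cathepsin G and chymase, whereas in the mouse the locus was duplicated many times and the copies diverged in the loop, and so in the proteases they meet. *Serpina3n* encodes a secreted inhibitor of granzyme B and leukocyte elastase, *Serpina3g* (also called Spi2A) an inhibitor kept inside haematopoietic cells that acts on lysosomal cysteine proteases such as cathepsin B, and *Serpina3c* and *Serpina3k* encode kallikrein-binding proteins.

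In GRCm38 the cluster spans chr12:104112724-104414329, which is 301.6 kb with 14 annotated *Serpina3* genes and pseudogenes, of which 5 (*Serpina3a*, *Serpina3d-ps*, *Serpina3e-ps*, *Serpina3j* and *Serpina3l-ps*) are not among the 9. *Serpina3b* (chr12:104127996-104139545, plus strand) lies 2nd in the row, next to *Serpina3c* (chr12:104146382-104153870), which is read from the minus strand. *Serpina3f* (chr12:104214544-104221129), *Serpina3g* (chr12:104236245-104241939), *Serpina3h* (chr12:104247905-104253669) and *Serpina3i* (chr12:104263122-104269372) follow each other on the plus strand, and *Serpina3h* is annotated as a transcribed unprocessed pseudogene. *Serpina3k* (chr12:104338486-104346144) lies inside the annotated span of *Serpina3m* (chr12:104338486-104394257), with which it shares a start. *Serpina3n* (chr12:104406729-104414329) closes the cluster on the plus strand.

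Promoter sequences from RefSeq (GRCm38.p6) were matched for 6 of the 9 genes. The stretch around the longest run of bases that all 6 promoters hold is shown, because it lets *Serpina3b*, the gene that was lost, be read beside 5 genes whose levels were higher in L2-fKO spleen. Capitals mark the shared run of 12 bases, and all sequences are written 5′ to 3′ on the strand of the gene. They lie at chr12:104127877-104127978 (*Serpina3b*, plus), chr12:104153886-104153987 (*Serpina3c*, minus), chr12:104214419-104214520 (*Serpina3f*, plus), chr12:104236170-104236196 (*Serpina3g*, plus), chr12:104263025-104263121 (*Serpina3i*, plus) and chr12:104406590-104406691 (*Serpina3n*, plus).
Serpina3b: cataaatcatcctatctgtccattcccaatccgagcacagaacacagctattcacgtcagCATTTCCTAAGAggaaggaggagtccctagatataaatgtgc
Serpina3c: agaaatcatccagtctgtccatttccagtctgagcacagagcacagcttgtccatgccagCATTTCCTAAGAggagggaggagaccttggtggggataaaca
Serpina3f: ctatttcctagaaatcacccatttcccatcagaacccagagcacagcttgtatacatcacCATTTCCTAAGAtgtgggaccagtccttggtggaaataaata
Serpina3g: ctgcatcaaCATTTCCTAAGAtgtggg
Serpina3i: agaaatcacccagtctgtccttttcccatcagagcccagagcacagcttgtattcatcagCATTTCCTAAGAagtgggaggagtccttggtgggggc
Serpina3n: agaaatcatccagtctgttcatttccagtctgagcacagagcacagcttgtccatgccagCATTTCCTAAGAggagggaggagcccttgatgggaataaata

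The shared run starts 37 to 65 bases before the RefSeq start of *Serpina3b*, *Serpina3c*, *Serpina3f*, *Serpina3i* and *Serpina3n*. For *Serpina3g* it lies after the RefSeq start, at position 32 from it, but 66 bases before the start that GENCODE gives. On either strand, 12 of 32851 RefSeq promoters of the same length (0.0365%) hold the run, the promoters of these 6 genes among them, with 2 for *Serpina3f*. The run was picked because all 6 genes, which are duplicated copies, hold it, so nothing is read from this share. Over the whole 300 bases the promoter of *Serpina3b* was 67.7% identical to that of *Serpina3n* and 64.9% to that of *Serpina3c*, while those of *Serpina3c* and *Serpina3n* were 89.9% identical to each other. Motifs searched on both strands, some of which can overlap, divided the promoters. The STAT motif TTCNNNGAA was in those of *Serpina3f*, *Serpina3g* and *Serpina3i* (8.3% of all promoters), an NF-kappaB motif in those of *Serpina3g*, *Serpina3i* and *Serpina3n* (1.63%), the C/EBP motif TTGCNNAA in those of *Serpina3b* and *Serpina3f* (10.8%), the GATA motif AGATAA in those of *Serpina3g* and *Serpina3i* (11.2%) and the RUNX motif TGTGGT in those of *Serpina3f* and *Serpina3g* (16.8%). The interferon-stimulated response element (3.44%) was in none of the 6. A match is a run of letters and not evidence that a factor binds.

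The spleen libraries held 39138010 to 45167464 counts on genes, and their levels are given as CPM, which is counts per 1000000 counts of the library after scaling by the TMM method. In these libraries 3 counts correspond to 0.0592 to 0.0769 CPM. *Zfp36l2*, the deleted gene, was at 101 to 171 CPM in wild type spleens and 6.42 to 9.37 in L2-fKO spleens, and at normalized counts of 4750 to 4910 in wild type and 758 to 1010 in L2-fKO ovaries. The reads that remain were not placed within the gene. Markers of B cells and macrophages were present in both genotypes. The summed CPM of 12 B cell markers was 396 to 2030 in wild type and 433 to 1100 in L2-fKO. That of 12 macrophage markers was 1630 to 2900 and 2650 to 4270. Markers of megakaryocytes and of neutrophils were lower in L2-fKO, as given below. L2-fKO spleen 4 and wild type spleen 1 stood apart from the rest of their groups in several of the genes below, and results that rest on them are given without them. In bulk tissue, fewer cells that express a gene and less RNA per cell cannot be told apart.

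*Serpina3b* was almost absent from L2-fKO spleen. Its CPM was 3.6, 4.53, 2.32 and 3.79 in wild type spleens 1 to 4, and 0, 0, 0 and 0.0592 in L2-fKO spleens 1 to 4. In reads this is 165, 194, 101 and 162 against 0, 0, 0 and 3. Every L2-fKO library lay below every wild type library. Pooled over the 4 libraries of each genotype the level was 203-fold lower in L2-fKO, with an exact 95% interval of 69 to 985 that covers counting error only, so that 0.494% of the wild type level remained. Without L2-fKO spleen 4, which held all 3 reads, *Serpina3b* was at least 143-fold lower, taking 3 counts over the remaining 3 libraries as the floor. The fitted log2 difference of -7.46 depends on the prior count that edgeR adds and is not a bound. Of the 11548 genes with at least the 622 reads that *Serpina3b* had in wild type spleens, 6 were left with 3 reads or fewer in L2-fKO spleens. The other 5 were the pancreatic genes *Cela3b*, *Try4*, *Try5* and *2210010C04Rik*, and *Tyrp1*, a melanosome enzyme.

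The remaining genes of the cluster that were detected in the spleen all had higher means in L2-fKO. *Serpina3n*, the granzyme B and elastase inhibitor, was at 5.21, 1.54, 0.759 and 1.64 CPM in wild type spleens 1 to 4 and at 22.1, 18.7, 26.1 and 23.2 CPM in the L2-fKO spleens. All L2-fKO values were more than 3 times the highest wild type value, which was that of wild type spleen 1. The ratio of the means was 9.84, or 17.1 without wild type spleen 1, and the fitted log2 difference was 3.29 ± 0.49 (SE, n = 4 per genotype).

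*Serpina3f* had CPM of 5.41, 2.2, 2.3 and 1.89 in the wild type libraries and 10.2, 8.07, 11.6 and 46.6 in the L2-fKO libraries. The groups did not overlap, but wild type spleen 1 and L2-fKO spleen 4 were each far above their group. The ratio of the means was 6.48, falling to 3.37 without L2-fKO spleen 4 and rising to 8.97 without wild type spleen 1, with a fitted log2 difference of 2.69 ± 0.61.

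*Serpina3g*, the lysosomal protease inhibitor of haematopoietic cells, was the member with most RNA. It was at 56.7, 38.7, 28.6 and 31.6 CPM in wild type spleens and at 75.5, 68.6, 79.5 and 232 CPM in L2-fKO spleens. The groups did not overlap, and L2-fKO spleen 4 was 3.12 times the mean of the other L2-fKO spleens. The ratio of the means of 2.93 became 1.92 without that library, and the fitted log2 difference of 1.55 ± 0.41 became 0.94, below the limit of 1 used for a call.

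*Serpina3i* was at 1.24, 0.514, 0.782 and 0.585 CPM in wild type and at 2.34, 2.92, 3.29 and 3.29 CPM in L2-fKO, a ratio of means of 3.79 that stayed between 3.65 and 4.73 without either of the libraries that stood apart. *Serpina3c*, one of the kallikrein-binding genes and the neighbour of *Serpina3b*, was at 0.24, 0.421, 0.23 and 0.164 CPM in wild type and at 0.58, 0.82, 0.88 and 1.14 CPM in L2-fKO, with a ratio of 3.25. Both genes had every L2-fKO library above every wild type library, and *Serpina3c* rested on 7 to 58 reads per library. The fitted log2 differences were 1.92 ± 0.29 for *Serpina3i* and 1.69 ± 0.34 for *Serpina3c*.

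The pseudogene *Serpina3h* was at 0.589, 0.351, 0.23 and 0.257 CPM in wild type spleens and 0.58, 0.538, 0.628 and 1.3 in L2-fKO spleens. Wild type spleen 1 lay within the L2-fKO range, so the groups overlapped. *Serpina3k* had 1, 0, 0 and 1 reads in wild type and 0, 0, 3 and 1 in L2-fKO spleens, and *Serpina3m* had no read in 7 libraries and 5 reads in L2-fKO spleen 4. Neither passed the filter on low counts, and no fold is given for them.

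**Figure D1:**
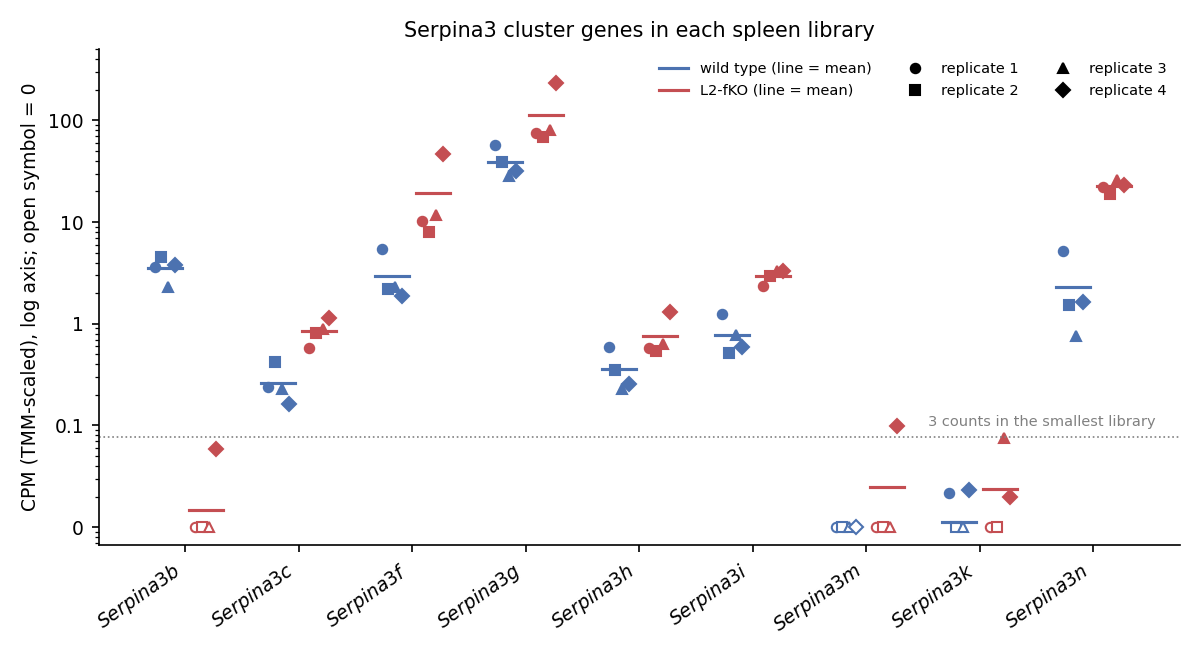
CPM of the 9 *Serpina3* genes, in chromosome order, in each of the 4 wild type (blue) and 4 L2-fKO (red) spleen libraries, on a log axis with zeros drawn as open symbols at the bottom and horizontal lines at the group means. *Serpina3b* is at 2.32 to 4.53 CPM in wild type and at 0 to 0.0592 in L2-fKO, whereas *Serpina3c*, *Serpina3f*, *Serpina3g*, *Serpina3i* and *Serpina3n* have every red point above every blue one.

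Of the 9 genes, 7 passed the filter of at least 10 counts in at least 4 spleen libraries. Under the limits used for a call (adjusted p below 0.05 and absolute log2 difference above 1), 5 were higher and 1 was lower in L2-fKO, and the same 5 and 1 did not overlap between genotypes. With males only, 3 were higher and 1 lower, and without L2-fKO spleen 4 it was 4 and 1. Over all 16911 genes tested, 2.9% were called higher and 3.11% lower, and 9.61% had every L2-fKO library above and 10.8% every L2-fKO library below every wild type library. Nothing is read from these counts, since the genes were chosen on this contrast and *Serpina3b* passed the filter through its wild type libraries alone. *Serpina3b* and *Serpina3c*, whose differences had opposite signs, are adjacent in the cluster.

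**Figure D2:**
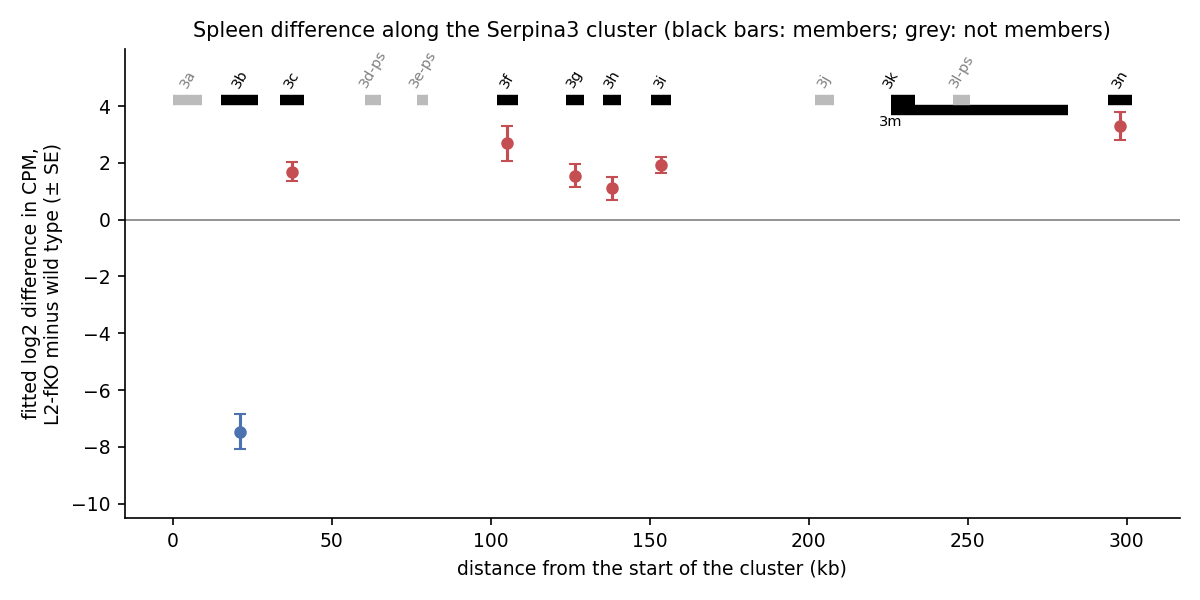
Fitted log2 difference in CPM between L2-fKO and wild type spleen (points, with SE as bars) at the position of each tested gene, in kb from the start of the cluster, under a map of the annotated genes. *Serpina3b* at -7.46 stands beside *Serpina3c* at 1.69, and the 5 tested genes after them are at 1.10 to 3.29.

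The order of the genes by level differed between the genotypes. Per kb of exon, wild type spleen was led by *Serpina3g* at 18.5 ± 5.98 CPM per kb (SD, n = 4), apart from *Serpina3b* at 1.72 ± 0.444, which overlapped *Serpina3f* at 1.29 ± 0.72 and was followed by *Serpina3n* at 1.11 ± 0.964, *Serpina3i* at 0.351 ± 0.148, *Serpina3h* at 0.249 ± 0.114 and *Serpina3c* at 0.119 ± 0.0497. In that order each gene from *Serpina3b* to *Serpina3c* overlapped its neighbour in range. In L2-fKO spleen *Serpina3g* again came first at 54.1 ± 37.5 CPM per kb, then *Serpina3n* at 10.9 ± 1.48 and *Serpina3f* at 8.35 ± 8.03, which overlapped each other, then *Serpina3i* at 1.33 ± 0.202, apart from both its neighbours, with *Serpina3h* at 0.531 ± 0.252 and *Serpina3c* at 0.387 ± 0.105 overlapping. *Serpina3b*, 2nd in wild type, was last of the 9 in L2-fKO, in a range shared with *Serpina3k* and *Serpina3m*.

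Summed over the 9 genes, the cluster gave 35.2 to 73 CPM in wild type and 99.6 to 308 CPM in L2-fKO spleens. *Serpina3g* made up 77.6% to 81.2% of this sum in wild type and 65.1% to 75.4% in L2-fKO, and *Serpina3n* 2.15% to 7.14% and 7.52% to 21.4%. In L2-fKO spleen 4, which had the largest sum, the share of *Serpina3n* was 7.52%, near that of 7.14% in wild type spleen 1, while the other L2-fKO spleens had 18.8% to 21.4%. The CPM of *Serpina3n* in that library was 1.04 times the mean of the other L2-fKO spleens, whereas those of *Serpina3f*, *Serpina3g* and *Serpina3h* were 4.68, 3.12 and 2.24 times.

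**Figure D3:**
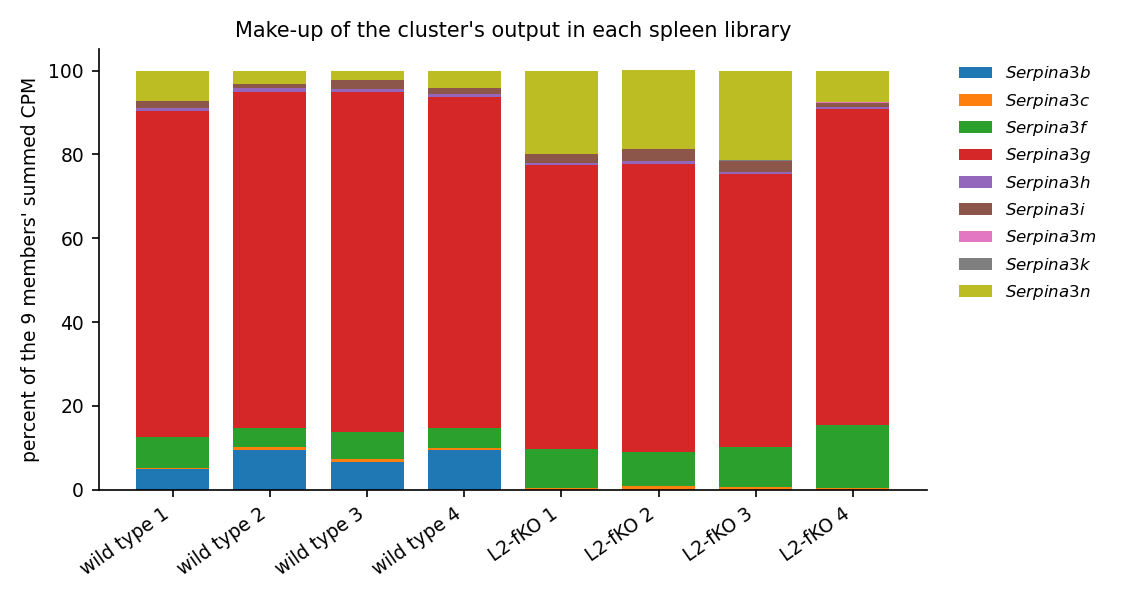
Share of each gene, in percent, of the summed CPM of the 9 genes in each spleen library. *Serpina3b* takes 4.93% to 9.48% in wild type and at most 0.0192% in L2-fKO, and *Serpina3n* takes 18.8% to 21.4% in L2-fKO spleens 1 to 3.

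The copies are similar enough for reads to be shared, and the authors counted uniquely mapped reads only. The coding sequences of *Serpina3k* and *Serpina3m* were 91.0% identical and that of *Serpina3b* was at most 78.6% identical to another member (*Serpina3n*). How many reads are lost by this depends on their length. Of all 50-base windows of the longest transcript, 24.37% for *Serpina3h*, 16.02% for *Serpina3g*, 4.25% for *Serpina3c* and 2.92% for *Serpina3b* were shared with another gene. At 100 bases none was shared for *Serpina3b* or *Serpina3c*, 0.2% for *Serpina3n*, and between 2.33% (*Serpina3i*) and 6.09% (*Serpina3m*) for the others, and at 150 bases 0.26% for *Serpina3k* and 0.33% for *Serpina3m* with none for the remaining 7. The read length is not given in the sources used here, so the levels of members that share windows are uncertain by an unknown amount.

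The ovary was a 2nd tissue whose values had no part in the rule for the genes. The authors deposited normalized counts for 18603 genes there, of which the lowest total was 61 reads, and *Serpina3c*, *Serpina3g* and *Serpina3n* are listed. *Serpina3g* had normalized counts of 299, 374 and 322 in wild type ovaries 1 to 3 and 745, 844 and 473 in L2-fKO ovaries 1 to 3. Every L2-fKO ovary lay above every wild type ovary, as did 13.2% of all 18504 genes tested. The log2 difference was 1.01 (SE 0.22, 95% interval 0.5 to 1.52), a 2.02-fold difference on the log2(value + 1) scale that missed the threshold (limma with Benjamini-Hochberg adjustment, adjusted p = 0.0756, unadjusted p = 0.00193). On recovered reads the adjusted p was 0.000235 by DESeq2 and 0.0686 by edgeR. Without L2-fKO ovary 1, 2 or 3 the limma adjusted p was 0.152, 0.0939 and 0.0254. Without wild type ovary 1, 2 or 3 it was 0.271, 0.199 and 0.261, at log2 differences of 0.94, 1.1 and 0.99. These fits hold fewer libraries, so a lost call in them does not single out a library.

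*Serpina3c* had normalized counts of 157, 128 and 132 in wild type and 207, 83.2 and 173 in L2-fKO ovaries. The L2-fKO values lay on both sides of the wild type ones, and the log2 difference of 0.06 (95% interval -0.71 to 0.83) did not pass (limma adjusted p = 0.946). *Serpina3n* was at 11, 4.18 and 11 in wild type and 24.1, 5.14 and 10.2 in L2-fKO ovaries, which rests on 5 to 27 reads per library. Its log2 difference of 0.41 (95% interval -1.01 to 1.83) did not pass either (limma adjusted p = 0.776). None of the 3 genes was called in the ovary, where 0.73% of all genes were called higher and 0.227% lower. At an unadjusted p under 0.05 there was 1, *Serpina3g*, which was also the 1 that DESeq2 called.

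Per kb of exon, the ovary order was *Serpina3g*, *Serpina3c*, *Serpina3n* in both genotypes, at 4.26 ± 0.523, 1.7 ± 0.163 and 0.114 ± 0.0515 CPM per kb (SD, n = 3, from the recovered reads) in wild type and 8.68 ± 2.36, 1.86 ± 0.745 and 0.168 ± 0.121 in L2-fKO, each apart from the next. *Serpina3c* thus stood above *Serpina3n* in the ovary and below it in the spleen. The tables of the organs were normalized separately, so no level was tested between them. Of the *Serpina3* genes outside the 9, *Serpina3a* was listed at 65.7 ± 9.62 normalized counts in wild type and 55.8 ± 8.27 in L2-fKO ovary (limma adjusted p = 0.647) and had no read in any spleen library, and *Serpina3l-ps* was at 19.4 ± 2.05 and 32.7 ± 12.1 (limma adjusted p = 0.354).

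**Figure D4:**
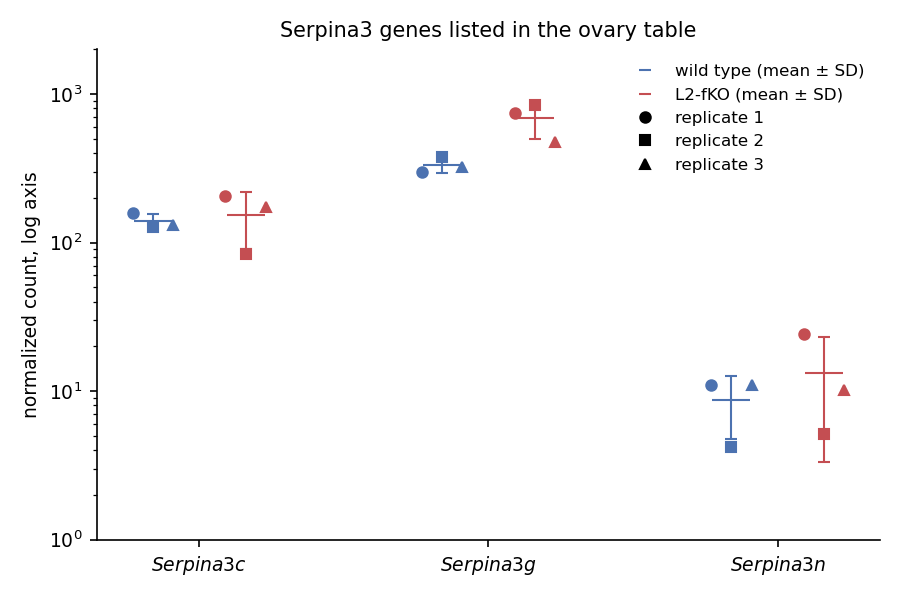
Normalized counts of the 3 *Serpina3* genes in the ovary table, per library on a log axis, with the mean and SD of the 3 wild type (blue) and 3 L2-fKO (red) ovaries. *Serpina3g* is at 299 to 374 in wild type and 473 to 844 in L2-fKO, and the groups overlap for *Serpina3c* and *Serpina3n*.

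Other serpins were measured in the same spleens. Of 16 other clade A genes, the secreted serpins to which the *Serpina3* genes belong, 2 passed the filter. *Serpina11* fell from 0.68 ± 0.327 to 0.22 ± 0.0938 CPM (SD, n = 4; log2 difference -1.61, edgeR quasi-likelihood test, adjusted p = 0.0403), on 120 and 38 reads. Its call was lost without any of wild type spleens 1, 2 and 4 or L2-fKO spleens 1, 2 and 3, with males only and with sex as a covariate, where the adjusted p was 0.0655 to 0.104. *Serpina10*, the inhibitor of coagulation factor Xa, was at 0.423 ± 0.479 and 0.36 ± 0.153 CPM (edgeR adjusted p = 0.855), with a log2 difference of -0.23 that became 0.95 without wild type spleen 1.

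Most of clade A was near the floor of detection in these spleens. Summed over all 4 libraries of a genotype, the alpha-1-antitrypsin genes had few reads, with 9 and 12 (wild type and L2-fKO) for *Serpina1a*, 34 and 59 for *Serpina1b*, 8 and 9 for *Serpina1c*, 4 and 8 for *Serpina1d* and 29 and 12 for *Serpina1e*. *Serpina12*, which encodes the adipokine vaspin, had 8 and 0 reads, *Serpina9* 3 and 4, *Serpina7*, the thyroxine-binding globulin, 0 and 2, *Serpina5*, the protein C inhibitor, 1 and 0, *Serpina16* 1 and 0 and *Serpina3j* 0 and 1. *Serpina1f* and *Serpina6*, the corticosteroid-binding globulin, had no read, like *Serpina3a*. In the ovary *Serpina5* was at 28.9 ± 23.5 normalized counts in wild type and 51 ± 43.4 in L2-fKO (limma adjusted p = 0.981).

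Among the 27 clade B serpins, which act inside cells, 8 passed the filter. Of these, 1 was called higher and 2 lower, beside 2.9% and 3.11% of all genes tested in the spleen. *Serpinb2*, the plasminogen activator inhibitor of macrophages, fell from 6.54 ± 0.236 to 0.373 ± 0.142 CPM (edgeR adjusted p = 1.86e-05) and *Serpinb10* from 9.12 ± 0.619 to 0.941 ± 0.43 (edgeR adjusted p = 0.000425). *Serpinb9b*, from the granzyme B inhibitor group, rose from 0.431 ± 0.154 to 1.31 ± 0.407 CPM (edgeR adjusted p = 0.0149), a call lost without wild type spleen 2 (0.0502) or wild type spleen 4 (0.054). The median log2 difference of the tested clade B genes was 0.14, and that of all genes tested was -0.02. Of the 11 serpins of clades C to I, 9 were tested and none was called by edgeR or DESeq2, with 2 at an unadjusted p under 0.05 and a median of 0.12. In the ovary none of 2 clade A, 8 clade B and 9 clade C to I genes was called by limma or by edgeR on recovered reads, with 0, 3 and 1 at an unadjusted p under 0.05 and 0, 1 and 0 called by DESeq2.

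Serine and cysteine proteases, listed by kind and not as shown targets of *Serpina3* proteins, changed in both directions. Of 25, 21 were tested in the spleen, with a median log2 difference of 0.5. Of the 21, 7 were called higher and 3 lower, beside 2.9% and 3.11% of all genes tested. The tryptases *Tpsab1* and *Tpsb2* rose from 0.247 ± 0.115 to 2.32 ± 1.71 CPM and from 6.52 ± 3.58 to 51.1 ± 30 CPM (edgeR adjusted p = 0.00848 and 0.00994), and the mast cell chymase *Mcpt2* from 0.925 ± 0.22 to 7.78 ± 4.06 CPM (edgeR adjusted p = 0.00401). *Klk1*, a tissue kallikrein, fell from 2.35 ± 2.33 to 0.078 ± 0.0457 CPM (edgeR adjusted p = 0.00894). Named after its values were seen, *Gzmb*, the granzyme that SERPINA3N blocks, rose from 1.32 ± 0.244 to 4.43 ± 3.08 CPM (edgeR adjusted p = 0.0216), a call lost without wild type spleen 2 (0.0552) or 4 (0.0721), in males only (0.0618) and with sex as a covariate (0.0519). Its log2 difference of 1.74 was 1.13 without L2-fKO spleen 4, where the call was kept (edgeR adjusted p = 0.00733). *Elane*, neutrophil elastase, also named after its values were seen, fell from 121 ± 17.4 to 20.8 ± 11.7 CPM (edgeR adjusted p = 0.0044). Marker sums of cells that make such proteases are set beside them. The mast cell and the acinar sums each overlapped between genotypes. L2-fKO spleen 3 lay below every wild type spleen in the mast cell sum. The summed CPM of 12 mast cell and basophil markers, 5 of which are also among the proteases and of which 6 were called higher and 1 lower, was 135 to 158 in wild type and 96.6 to 423 in L2-fKO, and that of 12 pancreatic acinar markers, of which 5 were tested and 4 called lower, was 38 to 577 in wild type and 29 to 50.5 in L2-fKO. The summed CPM of 12 neutrophil markers, of which *Elane* is one and 11 were called lower, was 3880 to 6290 in wild type and 257 to 1440 in L2-fKO. Their part in these results was not tested. In the ovary none of 13 proteases was called by limma or edgeR, with 5 at an unadjusted p under 0.05 and 1 called by DESeq2.

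The acute-phase response is the setting in which *Serpina3* genes are best known, through IL-6, oncostatin M and STAT3. Of 28 genes of this kind, 17 were tested in the spleen, with a median log2 difference of 0.78. Of the 17, 6 were called higher and 3 lower, beside 2.9% and 3.11% of all genes tested. *Socs3*, the feedback inhibitor of STAT3 signalling, rose from 13.7 ± 2.17 to 73.4 ± 9.86 CPM (edgeR adjusted p = 1.86e-05), *Osm* from 3.9 ± 0.722 to 17.6 ± 6.55 CPM (adjusted p = 0.000834) and *Il6* from 0.0918 ± 0.0336 to 0.37 ± 0.159 CPM (adjusted p = 0.0159), on 16 and 62 reads. The call of *Il6* was lost in males only (adjusted p = 0.0999). *Orm1*, a plasma acute-phase protein, fell from 1.78 ± 0.384 to 0.33 ± 0.121 CPM (edgeR adjusted p = 0.00138). *Saa1* and *Saa2* had no read in any spleen library. The other genes called lower, *Lcn2* and *Hp*, named after their values were seen, are neutrophil granule genes as well, whose summed markers are given above. Their part was not tested. In the ovary none of 14 acute-phase genes was called by limma, edgeR or DESeq2, with 5 at an unadjusted p under 0.05.

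*Serpina3g* is also induced by interferon-gamma. All 20 interferon-gamma response genes were tested in the spleen and 1 was called higher, beside 2.9% of all genes tested. *Iigp1*, an immunity-related GTPase, rose from 12.8 ± 4.81 to 70.2 ± 71.9 CPM (edgeR adjusted p = 0.0229), a call that was lost without wild type spleen 2 (adjusted p = 0.0768) or wild type spleen 4 (0.0765), in males only (0.055) and with sex as a covariate (0.0574). Its log2 difference of 2.45 was 1.42 without L2-fKO spleen 4, where the call was kept (edgeR adjusted p = 0.00524). DESeq2 gave *Iigp1* no adjusted p. The median log2 difference of the list was 0.34. Its summed CPM was 875, 603, 460 and 564 in wild type spleens 1 to 4 and 588, 513, 527 and 1560 in L2-fKO spleens 1 to 4. L2-fKO spleen 4 and wild type spleen 1 were thus the highest of their groups here too, as they were for *Serpina3f*, *Serpina3g* and *Serpina3h*, and the mean of the L2-fKO libraries went from 127% of wild type to 86.8% without L2-fKO spleen 4. L2-fKO spleen 4 also had the highest sum of macrophage markers (4270 CPM) and of 12 hepatocyte markers (23.5 CPM against 0.256 to 1.4 in all the others). Whether either has a part in its *Serpina3* levels was not tested. In the ovary none of 18 interferon-gamma response genes was called by limma or edgeR, with 7 at an unadjusted p under 0.05 and 2 called by DESeq2.

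The loss of *Serpina3b* went with a loss of megakaryocyte and platelet markers. All 12 of these markers were tested and all 12 were called lower (11 without L2-fKO spleen 4). Over all genes tested in the spleen, 2.9% were called higher and 3.11% lower. The summed CPM of the 12 markers was 1030, 1510, 803 and 1320 in wild type spleens 1 to 4 and 74.8, 81.3, 85.6 and 70.4 in L2-fKO spleens. By the means, 6.7% of the wild type level remained. For *Serpina3b* the ratio of the means was 0.00415, and 0.494% remained by the pooled counts. Among the 12, the mean left in L2-fKO ran from 1.13% (*Gp6*) to 48.9% (*Vwf*). The 4 wild type spleens had the same order in the marker sum and in *Serpina3b*, with spleen 2 highest and spleen 3 lowest. In that order the males, spleens 2 and 4, lay above the females, spleens 1 and 3, so sex gives the same split. Other sums had other orders, with the neutrophil sum highest in spleen 3 (6290 CPM) and the acinar sum highest in spleen 1 (577 CPM). How many genes share the order is not given, so nothing is read from it. The part of these cells in the level of *Serpina3b* was not tested. Neutrophil markers were lower as well, as given above. By edgeR and by DESeq2, none of 11 erythroid, 12 T cell, 12 B cell, 12 macrophage markers and 1 hepatocyte marker tested was called, with 2, 0, 0, 5 and 0 at an unadjusted p under 0.05. Of 12 stem and progenitor markers 2 were called lower, of 12 fibroblast and stromal markers 3 were called higher, and of 12 ovarian markers, which are no marker of spleen cells, 5 were tested and 2 called lower at a summed 17.6 to 29.7 CPM.

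The genes whose pattern over the 8 spleen libraries was most like that of *Serpina3b*, by the root mean square (RMS) difference of log2(CPM + 1) after centring each gene among 16910 others, were *Ankrd35* (0.144), *Trpc6* (0.159), *Slc35d3* (0.196), *Rbpms2* (0.221) and *Selp* (0.234), which encodes the P-selectin of platelets and endothelium. *Ankrd35* was at 3.73, 5.16, 3.36 and 4.21 CPM in wild type and 0.241, 0.256, 0.402 and 0.375 in L2-fKO spleens. *Trpc6*, a calcium channel gene, was at 7.09, 9.6, 5.38 and 8.74 CPM and 0.459, 0.769, 0.704 and 0.592. Both kept some reads in every L2-fKO library, unlike *Serpina3b*. The measure takes in the genotype difference on which *Serpina3b* was chosen, so likeness is a description and shared cells are not read from it.

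**Figure D5:**
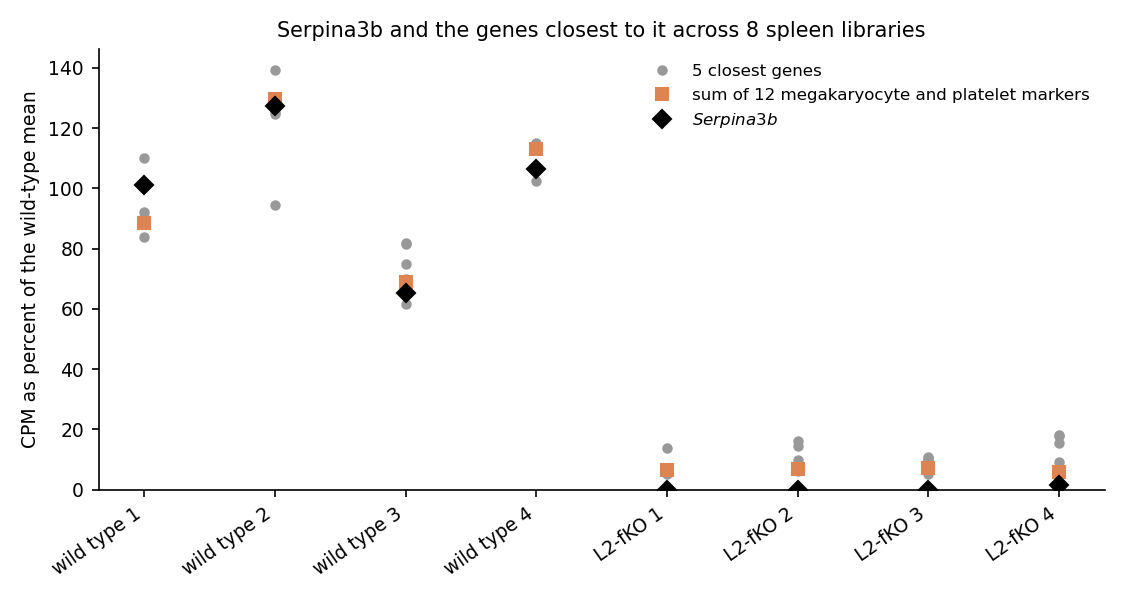
CPM in each of the 8 spleen libraries as a percent of the wild type mean, for *Serpina3b* (black), the 5 genes most like it (grey) and the sum of 12 megakaryocyte and platelet markers (orange). The marker sum averages 6.7% of the wild type mean over the L2-fKO libraries, and *Serpina3b* is at 0 in 3 of them.

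The pattern of *Serpina3g* in the spleen was most like that of *Cd5l* (RMS difference 0.134), a secreted protein of macrophages, at 57, 47.7, 36.2 and 32.6 CPM in wild type and 73, 69.5, 78.2 and 245 in L2-fKO. *Ighv2-5* (0.181), *Igkv2-109* (0.236), *Cp*, the ferroxidase ceruloplasmin (0.239), and *Rtn1* (0.247) came next. All 5 had their highest value in L2-fKO spleen 4, and *Ighv2-5* and *Igkv2-109* are immunoglobulin segments of a large family of similar copies. Over the 6 ovary libraries, the genes most like *Serpina3g* among 18503 others were *Cd86* (0.0985), a costimulatory molecule of antigen-presenting cells, *Ctss* (0.128), the cathepsin S gene, *9130019P16Rik* (0.132), *Phf11d* (0.135) and *Ccl9* (0.139). *Ctss* was at 185, 240 and 204 normalized counts in wild type and 421, 420 and 263 in L2-fKO ovaries, with L2-fKO ovary 3 the lowest of its group as it was for *Serpina3g*. The summed normalized count of 12 macrophage markers was 10100 to 11000 in wild type and 11300 to 16000 in L2-fKO ovaries. Of the 12, 8 had every L2-fKO ovary above every wild type ovary, as did 13.2% of all 18504 genes tested. None of the 12 was called by limma or edgeR, with 8 at an unadjusted p under 0.05 and 1 called by DESeq2, and their part in the level of *Serpina3g* was not tested. All 12 ovarian germ and somatic markers were listed in the ovary, with sums of 94900 to 98100 and 84200 to 97400.

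ZFP36L2 binds AU-rich elements in the 3′UTR of its target mRNAs, of which UAUUUAU is the core, and brings those mRNAs to decay. GENCODE gives a 3′UTR of 330 to 850 nucleotides for 8 of the 9 genes. None of the 8 holds the core in DNA letters, TATTTAT, or the pentamer ATTTA within it on the sense strand, whether higher or lower in L2-fKO spleen. Over the 21173 genes with a 3′UTR, 65.63% hold the pentamer and 27.42% the core, at a median length of 1084 nucleotides, and over the 4704 genes with a 3′UTR of the same length range as these 8 the shares were 51.19% and 12.97%. The 8 genes are copies from a duplicated family, so their 3′UTRs are not independent of each other. The absence of these letters from the annotated 3′UTR says nothing of sites elsewhere in the transcript.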

How the data were processed

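The spleen values were raw counts per gene deposited by the authors, made with Trimmomatic 0.36 (trimming), STAR 2.5.2b (mapping to GRCm38) and featureCounts of Subread 1.5.2 (unique exonic reads, by strand). For the ovary the authors deposited signal values, which are counts divided by a size factor per library (normalized counts), inside the table of their own DESeq2 comparison, whose fold changes and p-values were not used. Dividing by the smallest value of a library gave whole reads for 100.0% of these values within 0.001, 31052510 to 44270070 reads per library. No other per-sample column was left out.

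Spleen genes that reached 10 counts in 4 or more libraries were tested with edgeR 4.0.16 (quasi-likelihood, TMM), and ovary genes that reached a value of 10 in 3 or more libraries with limma 3.58.1 (intensity trend) on log2(value + 1), in R 4.3.3, with Benjamini-Hochberg adjustment over all genes tested. A gene was called at an adjusted p below 0.05 and an absolute log2 difference above 1. Counts at an unadjusted p under 0.05 are given without the share over all genes, so nothing is read from them. The pipelines were tested on simulated data. The SE beside an edgeR value is the log2 difference divided by the square root of its F statistic. Ensembl identifiers were paired with names through a gene name table, and exon lengths, positions and 3′UTRs came from GENCODE M21. Alternatives were DESeq2 1.42.0, RLE normalization, other filters and pseudocounts, sex as a covariate, males only, the replicate number as a block, tests on recovered reads, and each library left out in turn.

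The 9 genes, the gene and marker lists and the tests were chosen with earlier results of these data known. Named besides the 9 were all clade A serpins, in each other list the 4 called genes with the largest spleen difference (or all, if fewer), any called in the ovary, the 5 genes most like *Serpina3b*, *Serpina3g* and the highest ovary member, and *Zfp36l2*. Figures used matplotlib 3.10.9. Of the wild type spleens 2 carry the replicate number 3 in the labels, and the male one was taken as 4. Libraries of a group differed by more than counting error (chi-square per degree of freedom 7.24 to 213.18 in spleen, 11.74 to 56.59 in ovary). Within each organ the samples are separate animals, so each test sets the genotype difference against the spread between animals. The age-matched pairs that the study names for the spleen were not used, as the labels do not identify them.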

Additional observations from a re-analysis of the deposited data

Results flagged for a closer look

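In 4 of the 15 groups of 4 spleen libraries examined, the library with the highest value lay far from the others, by the ratio of its gap to the nearest library to the whole range of the group. A chance rate of about 1 group in 20 holds for normally distributed values, which CPM need not be, so nothing is read from the number of groups. The L2-fKO values of *Serpina3b* and *Serpina3m*, with reads in L2-fKO spleen 4 alone, are not among the groups flagged. The ratio was 0.933 for *Serpina3g*, 0.909 for *Serpina3f* and 0.882 for *Serpina3h* in L2-fKO spleen, each time for L2-fKO spleen 4, and 0.885 for *Serpina3f* in wild type spleen, for wild type spleen 1. These 3 genes share windows of identical sequence and are neighbours, so they are not independent of each other.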

How the results depend on the processing

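Each value was computed again under each alternative, 512 values for 36 results, of which 458 kept their direction and side of the threshold or moved by less than the spread between replicates. For *Serpina3b*, *Serpina3c*, *Serpina3f*, *Serpina3g*, *Serpina3h*, *Serpina3i* and *Serpina3n* no alternative turned the direction of the spleen difference. Leaving out each spleen library in turn gave log2 differences of -10.23 to -7.12 for *Serpina3b*, 1.75 to 3.17 for *Serpina3f* and 3 to 4.1 for *Serpina3n*, and males only gave 2.37 for *Serpina3i*. Leaving out each ovary library gave 0.84 to 1.26 for *Serpina3g*, -0.20 to 0.45 for *Serpina3c*, -0.12 to 0.89 for *Serpina3n* and -0.79 to 1.62 for *Serpina5*. In the ovary *Serpina3g* passed the threshold by DESeq2 (1.05). *Serpina10* in the spleen reversed to 0.68 in males only, 0.18 with the replicate block, 0.08 with sex as a covariate and ranged from -0.56 to 0.95 without a library. The cause of these moves was not tested. Spleen calls were 490 higher and 526 lower, 340 to 594 and 370 to 666 without a library. Ovary calls were 135 higher and 42 lower, 286 and 121 by DESeq2, and 28 to 127 and 4 to 72 without a library, where fewer samples remained.

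Same-numbered samples had correlations of -0.439 to 0.233 in spleen and 0.072 to 0.382 in ovary, so the numbers were not taken to pair them, as not every correlation passed 0.1. In the ovary all 3 were positive, and 2 of the 3 wild type samples correlated best with their own number. With the replicate block, 411 genes were called higher and 389 lower in spleen and 187 and 81 in ovary, and the ovary difference of *Serpina3g* of 1.01 had an adjusted p of 0.0373. In the spleen 4 of the 9 genes were then called higher and 1 lower, and the calls of *Serpina11* (adjusted p = 0.0998), *Il6* (0.0624), *Iigp1* (0.0548) and *Gzmb* (0.054) were lost. In the spleen, males only are a comparison of 2 with 3 animals. Depth limits *Serpina3k* and *Serpina3m*, at 5 reads or fewer per library, and *Serpina3n* in the ovary.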
